A study of Homo sapiens with 18 samples.

Results

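HCT116, a colon carcinoma cell line grown as an adherent laboratory culture, was compared with the rest of a panel of colorectal cancer (CRC) lines. HCT116 was the 1 array of the 18 in the data that carried this cell line label, and the other 17 arrays each held a different line labelled CRC. HUTU80, 1 of the 17, is known as a carcinoma line of the duodenum and was kept as labelled. HCT116 was grown in RPMI-1640 with serum, antibiotics, extra glucose and pyruvate, as were COLO320HSR, KM12, LS513, MDST8, NCIH716, RCM1 and SNUC1. The medium of CAR1, CL40, HT55, HUTU80, LS180, OUMS23, RKO, SW1463, SW48 and SW948 was DMEM/F-12 with serum and antibiotics. The labels name no treatment, and passage and genotype were not among the labels used here, so the identity of the line was not checked beyond its epithelial genes.

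Total RNA was labelled with biotin and hybridised to a whole-transcriptome array, and the values are log2 intensities. HCT116 was measured once. Its differences are therefore set against the spread between lines, not against replicates, and each test assumes that the HCT116 array varies as the other 17 lines vary among themselves. Of 19774 genes measured, 13085 lay above a background level of 4.82 in at least 1 line and were tested. HCT116 had 9707 genes above background and the other lines had between 9339 and 9888. All 11 measured leukocyte markers and all 9 endothelial markers lay under background in HCT116, including PTPRC (3.28), the pan-leukocyte antigen CD45, and PECAM1 (3.33), an endothelial adhesion molecule.

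As background, HCT116 is widely used as a model of mismatch-repair-deficient colon cancer. It carries an activating mutation of CTNNB1, which encodes beta-catenin, and a truncating mutation of the TGF-beta receptor gene TGFBR2. Its karyotype is near-diploid, with extra copies of parts of a few chromosomes. None of these properties was measured here. CRC lines in general range from cultures that keep the enterocyte programme, the genes of absorptive gut cells, to cultures that have lost it, and most keep the junction proteins and keratins of epithelium.

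The first question was which genes set HCT116 apart. The genes farthest above every other line were led by MAGEB2, GTSF1 and GPAT2. In limma with Benjamini-Hochberg adjustment, 26 genes (0.199% of those tested) were higher in HCT116 and 4 (0.0306%) were lower, and 389 had an unadjusted p under 0.05. Of the 26, 17 were above background in HCT116 alone. Those 17 entered the test only through the array in which they are high, so their values are given below as a description without p; the other 9 were CPA4, CYP24A1, GTSF1, OR51B4, PDLIM3, PVT1, SYTL3, TRIM72 and WNT16. HCT116 was the highest of the 18 lines, and above background, at 638 genes (4.88%), and the lowest at 196 genes (1.5%) that every other line expressed. It lay at least 1 log2 unit above every other line at 42 genes (0.321%) and at least 1 unit below every other line at 15 (0.115%). At 10 genes (0.0764%) the gap upward was at least 3 units, and at 2 genes (0.0153%) the gap downward was. These counts were not large for the panel. By the number of genes 1 unit above all others HCT116 ranked 14th of 18 lines, with SW948 at 12 genes and NCIH716 at 291 as the extremes, and its 196 lowest genes were the fewest of any line.

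MAGEB2 and GTSF1 had the widest gaps. MAGEB2, an X-linked cancer-testis antigen normally expressed in male germ cells, was 11.41 in HCT116 and ran from 2.80 (HT55) through a median of 3.30 to 3.67 (RCM1) in the other lines. No other line exceeded background, and HCT116 lay 6.60 log2 units above the background level. GTSF1, a small zinc finger protein that works with PIWI proteins to silence transposons in germ cells, was 11.36 in HCT116 against 2.89 (SW48), 3.07 (median) and 5.25 (LS180). LS180 was the only other line above background for GTSF1, and the difference from the mean of the other lines was 8.18 ± 0.59 (SE; adjusted p = 1.08e-07, limma). GPAT2, a mitochondrial acyltransferase expressed mainly in testis and linked to the same transposon-silencing pathway, was 8.87 in HCT116, 4.06 units above the background level, and 3.02 to 3.76 elsewhere. For genes that no other line expressed, the other lines give no level, only a bound.

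The promoters of these 3 genes are shown because CG dinucleotides are the sites of DNA methylation, which silences many germline genes in somatic cells as background knowledge. Methylation was not measured here. The windows run from 250 bases before to 50 bases after the start of the gene in RefSeq on GRCh38.p14, 5′ to 3′ on the gene's own strand, with every CG in capitals. MAGEB2 lies at chrX:30215313-30215612 on the plus strand, GTSF1 at chr12:54473553-54473852 on the minus strand and GPAT2 at chr2:96036216-96036515 on the minus strand.
MAGEB2: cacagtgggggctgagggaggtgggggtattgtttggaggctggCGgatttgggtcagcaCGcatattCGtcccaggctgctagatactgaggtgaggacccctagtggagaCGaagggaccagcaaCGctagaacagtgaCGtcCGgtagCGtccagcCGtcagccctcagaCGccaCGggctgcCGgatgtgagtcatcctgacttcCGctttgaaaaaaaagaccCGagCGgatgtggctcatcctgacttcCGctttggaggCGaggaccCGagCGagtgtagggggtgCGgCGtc
GTSF1: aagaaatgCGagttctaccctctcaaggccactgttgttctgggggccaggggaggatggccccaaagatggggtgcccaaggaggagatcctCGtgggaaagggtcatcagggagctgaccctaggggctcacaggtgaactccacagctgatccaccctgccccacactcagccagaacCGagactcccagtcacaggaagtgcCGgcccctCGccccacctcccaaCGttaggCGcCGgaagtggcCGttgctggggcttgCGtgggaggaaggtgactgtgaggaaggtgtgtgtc
GPAT2: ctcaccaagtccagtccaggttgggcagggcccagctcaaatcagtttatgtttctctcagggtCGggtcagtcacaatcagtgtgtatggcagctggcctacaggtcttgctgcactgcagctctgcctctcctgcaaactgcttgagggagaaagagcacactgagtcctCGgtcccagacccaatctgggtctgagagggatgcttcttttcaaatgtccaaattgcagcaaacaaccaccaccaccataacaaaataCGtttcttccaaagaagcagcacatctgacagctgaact
The MAGEB2 window held 21 CG dinucleotides, the GTSF1 window 10 and the GPAT2 window 3. Over the 15399 measured genes with such a window the median was 22; 54.9% held at least 21, 73.8% at least 10 and 90.7% at least 3. Of the 42 genes at least 1 unit above every other line, 33 had a window, and their median was 23. MAGEB2 was therefore near the median in CG dinucleotides, and GTSF1 and GPAT2 were under it.

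By its median the germline list was not high in HCT116. The median difference was −0.06, rank 17 of 18, and 12 of 35 members were above the median of the other lines. Most members were under background in every line, so this position is a median of values near background and its rank says little. At least 1 unit above the median were 5 members (8.75% of all genes tested were), and none was at least 1 unit under it (6.41%). Of the 35 measured members of the germline and cancer-testis list, 14 were above background in some line and 5 in HCT116. These 5 include GTSF1 and MAGEB2, the latter above background in HCT116 alone. Both were named in advance for this line with earlier results known, so they give no support for the list. MAGEA6, another MAGE antigen, was 11.27 in HCT116 against a median of 4.08, but 7 other lines expressed it and NCIH716 reached 12.05. PRAME, a testis antigen common in tumours, was 7.85 against a median of 3.38 and was higher in HUTU80 (9.92). MAGEA12 was 7.71 against a median of 3.36, with 7 other lines above background and COLO320HSR highest at 10.86. These 3 genes overlapped the other lines, and their adjusted p was 1.00. M1AP, a gene needed for male meiosis, and KHDC1L, a relative of oocyte and embryo proteins, were outside the list and were above background in HCT116 alone: M1AP was 7.44 against at most 4.07, and KHDC1L 7.32 against at most 3.77.

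**Figure D1:**
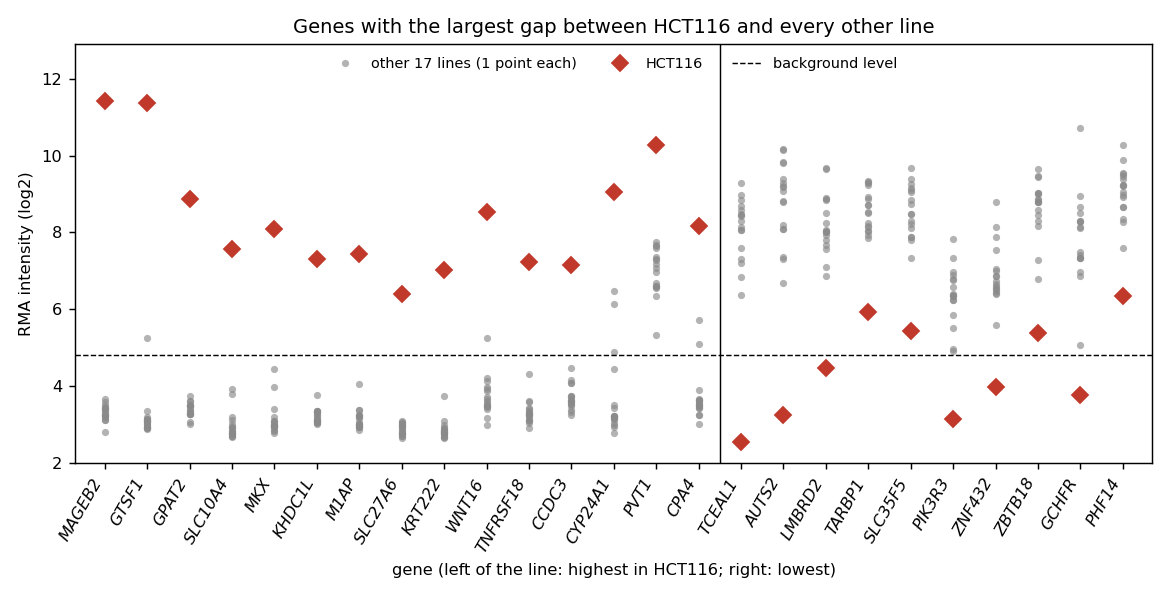
The log2 intensity of each line (vertical axis) is plotted for the 15 genes farthest above and the 10 genes farthest below every other line in HCT116 (horizontal axis). The red diamond is HCT116, each grey point is 1 of the other 17 lines, and the dashed line is the background level of 4.82. HCT116 reaches 11.41 for MAGEB2 while the other lines stay at or under 3.67, and it falls to 2.56 for TCEAL1 while the lowest other line is at 6.37.

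The remaining genes with the widest gaps came from several tissues. MKX, a homeobox factor of tendon, was 8.08 in HCT116 and at most 4.45 (LS180) elsewhere, where no line exceeded background. WNT16, a secreted WNT ligand known from bone and skin, was 8.53 in HCT116, 2.98 to 5.25 in the other lines, and above background in SW48 alone among them (difference 4.79 ± 0.56, adjusted p = 7.74e-05). SLC10A4, a transporter of the bile acid carrier family found in neurons, was 7.57 against at most 3.92. These genes were picked by their gap to every other line, so the lack of overlap follows from the choice.

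Another 4 genes were above background in HCT116 alone. SLC27A6, a fatty acid transporter of heart, was 6.40 against at most 3.08. KRT222, a keratin-like protein, was 7.03 against at most 3.73, and TNFRSF18 (GITR), a co-stimulatory receptor of T cells, was 7.23 against at most 4.31. CCDC3, a secreted protein of fat and endothelium, was 7.16 against at most 4.48. Above the background level these 4 genes stood by 1.58 (SLC27A6) to 2.41 (TNFRSF18) units, and SLC10A4, also at background in every other line, by 2.75.

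Some of the HCT116-high genes were also expressed elsewhere. CPA4, a carboxypeptidase of the tumour stroma and of some carcinomas, was 8.17 in HCT116 and 5.73 in MDST8 (adjusted p = 0.00313). CYP24A1, the enzyme that inactivates vitamin D, was 9.04 in HCT116, 6.47 in SNUC1 and at a median of 3.22, and it passed the test only narrowly (adjusted p = 0.0498), the call being kept only when SNUC1, HT55 or CAR1 was the line left out. PVT1, a long non-coding RNA beside MYC on chromosome 8, was 10.26 in HCT116 and 5.34 to 7.75 in the other lines (adjusted p = 0.0317). Only 1 of the 2 PVT1 probe sets above background placed HCT116 highest, and with the probe set of largest SD the difference was −0.59, so the direction for PVT1 depends on the probe set. Its call was also lost without SW948.

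Fewer genes were low in HCT116 alone. TCEAL1, an X-linked nuclear protein related to a transcription elongation factor, was 2.56 in HCT116 and 6.37 (OUMS23), 8.30 (median) and 9.30 (MDST8) in the other lines. HCT116 was the only line under background, and the difference was −5.54 ± 0.79 (adjusted p = 0.000931). AUTS2, a chromatin regulator known from brain development, was 3.25 in HCT116 and 6.68 (CAR1) to 10.16 (SNUC1) elsewhere, with a median of 9.07 (difference −5.54 ± 1.00, adjusted p = 0.0136). LMBRD2, a multi-pass membrane protein, was 4.46 against at least 6.87 (adjusted p = 0.0498), and TARBP1, an RNA methyltransferase, was 5.94 against at least 7.86 (adjusted p = 0.0407). LMBRD2 and TARBP1 passed narrowly. Only 1 of the 2 LMBRD2 probe sets above background placed HCT116 lowest. With the mean of all probe sets the calls of LMBRD2 and AUTS2 were lost, and with array medians subtracted that of LMBRD2 was. Leaving out 1 other line ended the call of LMBRD2 for 11 of the 17 lines (all but RKO, SW48, SNUC1, LS513, MDST8 and HUTU80) and that of TARBP1 for 7 (SW48, RCM1, HT55, SW948, SW1463, LS513 and NCIH716).

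With medium as a term in the fit, 27 of the 30 genes called were kept, and CYP24A1, PDLIM3 and TARBP1 were lost. Against the RPMI-1640 lines alone 14 were kept, and the calls of CPA4, CYP24A1, PVT1, AUTS2, LMBRD2 and TARBP1 were among those lost. That comparison has 7 other lines in place of 17, so medium and the number of lines cannot be told apart.

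A further group was lowest in HCT116 by more than 1 unit without passing the test. PIK3R3, a regulatory subunit of phosphoinositide 3-kinase, was 3.14 in HCT116 and at least 4.93 elsewhere, and both of its probe sets above background placed HCT116 lowest. For SLC35F5 and PHF14, named below, only 1 of 2 did. ZNF432, a zinc finger protein, was 3.98 against at least 5.60, and GCHFR, the feedback regulator of tetrahydrobiopterin synthesis, was 3.78 against at least 5.07 and up to 10.71 (NCIH716). These 3 genes were under background in HCT116 alone. SLC35F5, a solute carrier, was 5.44 against at least 7.33 (adjusted p = 0.0557). ZBTB18, a transcriptional repressor, was 5.37 against at least 6.79 (adjusted p = 0.0832), and PHF14, a chromatin reader, was 6.34 against at least 7.59 (adjusted p = 0.139).

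Likeness to the other lines was read from 4899 genes whose range over the panel was at least 3 log2 units. The correlation across these genes, which are not independent, was highest with SW48 (Pearson r = 0.75, Spearman rank correlation 0.74). RKO (r = 0.70), RCM1 (0.69), KM12 (0.68) and LS180 (0.67) followed, and NCIH716 was least like HCT116 (0.51). SW48 and RKO were grown in DMEM/F-12, unlike HCT116. SW48 was nearest under each of the 5 settings tried, and RKO second under all but 1: over genes with a range of at least 4 units the second was RCM1.

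The second question was where HCT116 stands among lines that keep E-cadherin but lack enterocyte genes. CDH1, which encodes E-cadherin, the adhesion protein of epithelial junctions, was above background in 13 of the 18 lines. At 8.81 HCT116 had the lowest CDH1 of the 13, below CAR1 (9.57) and KM12 (10.15), and CL40 had the highest (11.58). The other 5 lines (RKO, MDST8, COLO320HSR, NCIH716 and HUTU80) lay at 3.16 to 4.08. Of the 31 enterocyte genes measured, HCT116 had 3 above background: CA2 (8.89), USH1C (5.53) and CDX2 (5.32). CAR1 and OUMS23 had 1 each, SW48 had 5, KM12 had 11 and LS180 had 13, and the other 7 lines with CDH1 had 16 to 22. The 6 lines with CDH1 and under 50% of the list were therefore HCT116, KM12, SW48, LS180, CAR1 and OUMS23. HCT116, SW48, CAR1 and OUMS23 remained when the limit was set at 33%.

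**Figure D2:**
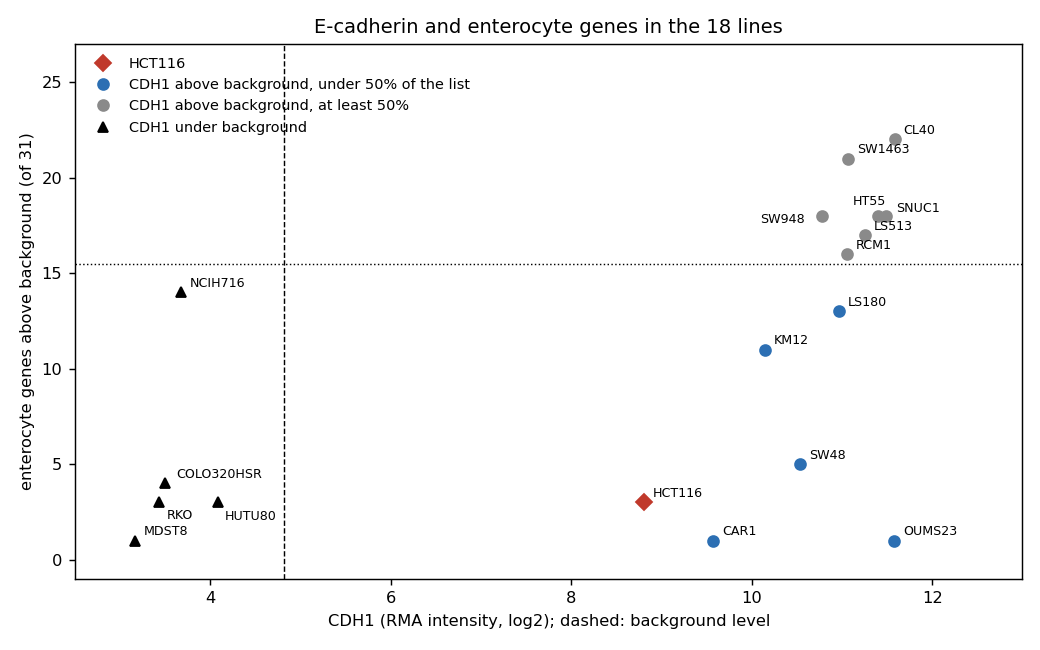
The number of enterocyte genes above background, of 31 measured (vertical axis), is plotted against the log2 intensity of CDH1 (horizontal axis), with 1 point for each of the 18 lines. HCT116 is the red diamond at 8.81 and 3 genes, with the lowest CDH1 among the 13 lines to the right of the dashed background level; the dotted line marks 50% of the list.

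Within these 6 lines HCT116 lay at least 1 unit above the other 5 at 180 of 11738 genes and at least 1 unit below them at 67. SW48 (194 and 91), LS180 (271 and 91), CAR1 (625 and 273) and OUMS23 (631 and 500) had more such genes in both directions, and KM12 had 145 and 153. Beside MAGEB2, GTSF1 and GPAT2, the genes most clearly high within the set were HBE1, NPW and TMSB15A. NPW, the precursor of neuropeptide W, was 9.59 in HCT116 and at most 3.20 (LS180) in the other 5 lines, while NCIH716 outside the set reached 10.90. TMSB15A, an actin-binding beta-thymosin, was 9.38 against at most 3.98 (CAR1), with MDST8 outside the set at 9.66. NPW and TMSB15A therefore distinguished HCT116 within the set and not from the whole panel.

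The genes most clearly low within the set were TXNIP, RIN2, PLBD1, TCEAL1, STAP2 and FBLIM1. TXNIP, the glucose-induced inhibitor of thioredoxin, was 3.45 in HCT116 and 7.85 (OUMS23) to 10.81 (CAR1) in the other 5 lines. All 3 TXNIP probe sets placed HCT116 lowest of the 18 lines, with HUTU80 (3.65) beside it, and over the whole panel the test was not passed (difference −6.30 ± 1.95, adjusted p = 0.648). STAP2, an adaptor of tyrosine kinase signalling, was 3.49 against at least 7.09 (SW48). FBLIM1, a filamin-binding adhesion protein, was 3.13 against at least 6.71 (LS180). RIN2, which activates RAB5, was 3.88 against at least 7.96, and PLBD1, a phospholipase B-like protein, was 3.45 against at least 7.48, both with OUMS23 as the next line. A fit of the CDH1-positive lines alone tested 12327 genes, and its counts are given with the other settings below.

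The epithelial list was present in HCT116, at the lowest position of the 13 lines with CDH1. Of 26 measured junction and keratin genes, 25 were above background in HCT116, 22 were under the median of the other lines, and the median difference was −0.58 against 0.04 over all genes tested, rank 13 of 18. The next line was SW48 (−0.44), and the 5 lines without CDH1 lay below HCT116. No member passed the test. KRT8 (11.95), KRT18 (12.46) and EPCAM (11.50), the keratins of simple epithelium and an epithelial adhesion molecule, were near the medians of the other lines (12.23, 12.71 and 12.06). CLDN1, a tight junction claudin, was the exception under background at 3.05, where the other lines ran from 2.93 (OUMS23) to 11.01 (CAR1) with 12 of 17 above background. CLDN3 was 5.82 against a median of 8.87, and CDH3 (P-cadherin) was 9.35, rank 3 of 18.

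Enterocyte and goblet cell genes were largely at background. The enterocyte list had a median difference of −0.43, rank 17 of 18, beside CAR1 (−0.45), HUTU80 (−0.42) and OUMS23 (−0.42). Most members were under background in these lines, so their order says little. In HCT116 11 of 31 members were at least 1 unit under the median (6.41% of all genes tested were). The carbonic anhydrase CA2 was the 1 member at least 1 unit above it (8.89 against 5.57, where 8.75% of all genes tested were). In RNA from a whole culture, fewer cells that express a gene and less RNA per cell cannot be told apart. GPX2, a glutathione peroxidase of gut epithelium, was 3.26 in HCT116 against a median of 11.19, and 10 other lines expressed it. TSPAN8 (3.51, median 11.36), CDH17 (3.55, median 10.08) and LGALS4 (3.94, median 10.39), a tetraspanin, a cadherin and a lectin of the intestine, were read at background in the same way. VIL1, which bundles actin in microvilli, was under background at 3.07, as it was in SW48 (3.09). Each of these genes was also under background in at least 5 other lines, so HCT116 did not stand alone, and each adjusted p was 1.00.

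Of 22 goblet and secretory genes, 3 were above background in HCT116. The secretory-pathway protein AGR2 (2.81) and the trefoil peptide TFF3 (3.59) lay at the foot of the panel, where 10 other lines expressed each of them and the medians were 9.46 and 9.80. GALNT12, a mucin-type glycosyltransferase, and KLF4, a transcription factor of differentiating epithelium, were present at 8.28 and 8.79, near the medians of the other lines (8.39 and 8.85). FOXA3, a forkhead factor of endoderm, was the other gene above background (5.26).

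WNT targets and crypt base genes stood low in HCT116. The 27 measured members had a median difference of −0.72, rank 17 of 18 with RKO below. At least 1 unit under the median were 12 members (6.41% of all genes tested were), and 1 was at least 1 unit above it (8.75%). ASCL2, which directs the stem cell state of the crypt, was under background in HCT116 (3.27) and 12 other lines expressed it. AXIN2, a feedback inhibitor of the pathway, was 5.82 against a median of 9.38. LEF1, a partner of beta-catenin, was 3.41 against 6.46, and LGR5, the receptor that marks crypt stem cells, was 2.94 against 5.39. DKK1, a secreted antagonist of WNT receptors, went the other way: it was 11.53 against a median of 3.90, the second highest level after HUTU80 (12.79). No member passed the test, and the levels in HCT116 overlapped those of other lines for each of these genes except ASCL2, which was 3.58 in the next line, HUTU80, also under background.

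**Figure D3:**
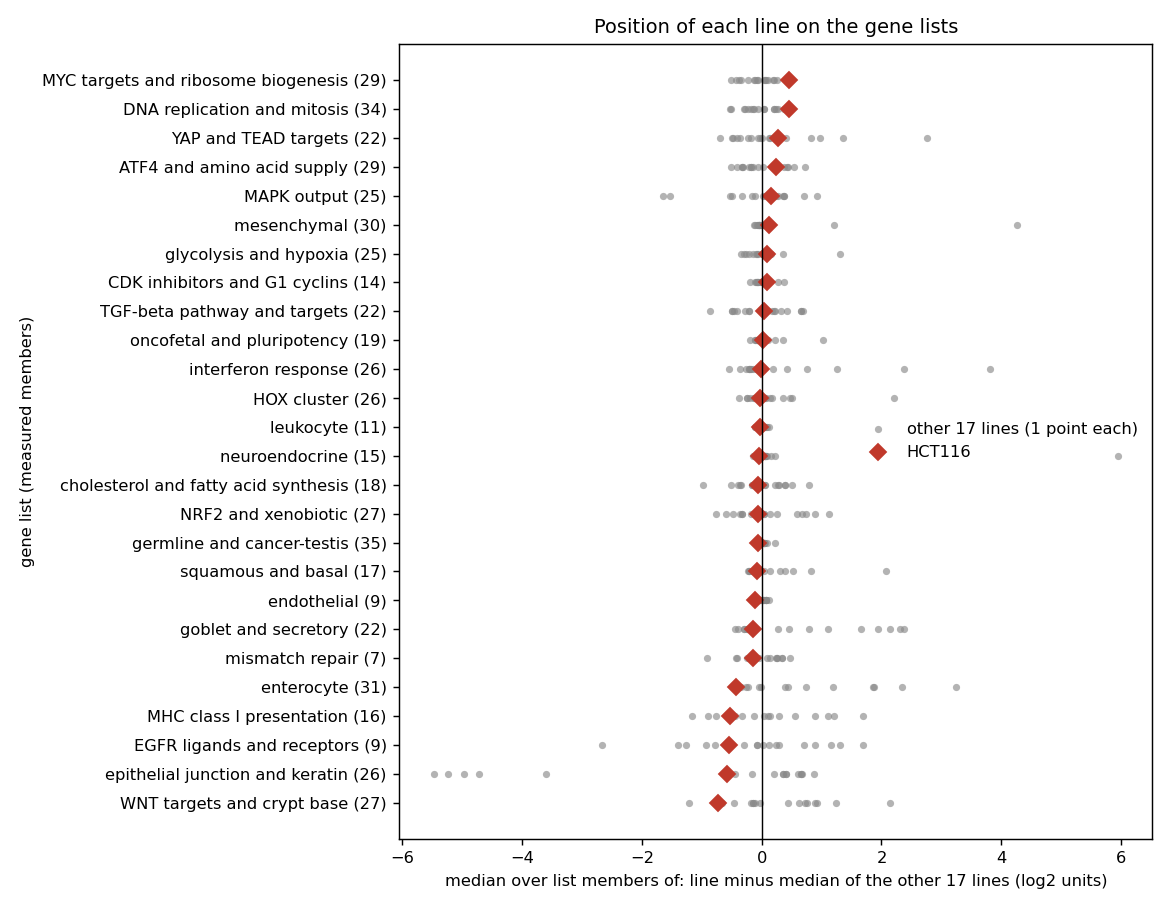
The position of each line on 26 gene lists is plotted as the median over list members of the difference between the line and the median of its other 17 lines (log2 units, horizontal axis), with the number of measured members in brackets. HCT116 (red diamonds) is at the right end of the MYC and replication lists (both 0.46) and near the left end of the WNT (−0.72) and enterocyte (−0.43) lists; grey points are the other lines.

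Growth factor ligands and receptors were split. EREG (epiregulin), a ligand of the EGF receptor, was 10.33 in HCT116, the highest of the panel with both probe sets, but KM12 (9.94), SW48 (9.63) and LS180 (9.61) followed closely. The other lines ran down to 2.46 (OUMS23) with a median of 8.29, and the difference did not pass the test (3.31 ± 2.96, adjusted p = 1.00). TGFA, another ligand, was 8.70 against a median of 7.30. The receptors lay under the medians: EGFR was 6.81 against 7.89, ERBB2 6.37 against 7.37 and ERBB3 7.50 against 9.84. EREG thus marks HCT116 as 1 of 13 lines with a signal and not as the single one.

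Output genes of the MAPK pathway, which carries signals from growth factor receptors, showed no common shift (median difference 0.16, 25 members). At least 1 unit above the median were 6 of them (8.75% of all genes tested were), and 2 were at least 1 unit under it (6.41%). DUSP5, a nuclear ERK phosphatase, was 10.16 against a median of 7.47 and second to RCM1 (10.24). HMGA2, an architectural chromatin protein, was 10.36 against 8.05, and ETV1, an ETS factor, 8.02 against 4.53. The feedback inhibitors SPRY2 (6.39 against 9.32) and SPRY1 (4.97 against 7.28) both ranked 17th of 18.

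Some mesenchymal genes were expressed in HCT116 and others were not. Of 30 members measured, 10 were above background in HCT116. At least 1 unit above the median of the other lines were 12 members, where 8.75% of all genes tested were. That median was itself at background for most members. The list position was 0.12, rank 4 of 18 with MDST8 far above (4.27), and array scaling moved the rank between 3 and 6. CALD1 (9.57), an actin-binding regulator of contraction, FERMT2 (9.50), an integrin activator, AXL (8.85), a receptor tyrosine kinase, FSTL1 (7.88), a secreted glycoprotein, and CAV1 (11.79), the caveolar coat protein, were 4.34 (FSTL1) to 6.54 (CALD1) units above medians that, but for CAV1 (6.56), were under background. The collagen genes COL6A1, 3.09 units above the median of the other lines, and COL6A2 (5.07), fibronectin (FN1, 5.87), the myosin light chain gene MYL9 (5.71) and the factor TWIST1 (5.34) were above background as well. VIM (4.70) and ZEB1 (4.68), the intermediate filament and the repressor that mark mesenchyme, lay just under the background level, and N-cadherin (CDH2) was 3.46. Among the 6 lines with CDH1 and few enterocyte genes, FERMT2 was also high in CAR1 (8.09) and OUMS23 (10.66). AXL (10.32) and FSTL1 (11.93) were also high in CAR1 alone. CALD1 was also high in SW48 (8.23), LS180 (9.09), CAR1 (8.84) and OUMS23 (10.82), and under background in KM12 (2.74). CAV1 was above background in all 6 lines, at 8.65 (LS180) to 12.01 (CAR1) outside HCT116.

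YAP is a co-activator that answers to cell density and stretch, and TEAD proteins are its DNA-binding partners. Their targets had a median difference of 0.28 over 22 members. At least 1 unit above the median were 7 members (8.75% of all genes tested were), and none was at least 1 unit under it (6.41%). ARHGAP29, a GTPase-activating protein, was highest in HCT116 (11.17, with OUMS23 at 11.03). FRMD6 was 7.58 against a median of 4.56, and CCN1 was 9.69 against 7.76. These 3 genes overlapped or adjoined other lines and had adjusted p of 1.00.

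The TGF-beta list held members far above and far under the other lines. TGFBI, an extracellular matrix protein, was under background in HCT116 (3.28), while 13 other lines expressed it at up to 12.91 (MDST8) and the median was 10.23. ITGB6, the integrin subunit that activates latent TGF-beta, was under background as well (3.10, median 7.86), and PMEPA1, a feedback inhibitor, was 3.60 against a median of 6.46. The receptor gene TGFBR2 was itself detected at 8.04 (median 9.64). LTBP3, which binds latent TGF-beta, was 9.13 against a median of 5.95, and ADAM19, a membrane protease, was 6.88 against 4.33. Over the 22 members the median difference was 0.04. At least 1 unit above the median were 3 (8.75% of all genes tested were), and 7 were at least 1 unit under it (6.41%). No member passed the test.

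Genes of DNA replication and ribosome biogenesis were the lists on which HCT116 stood highest, by small margins over many members. Of 29 measured MYC targets and ribosome biogenesis genes, all 29 were above the median of the other lines, where 53.8% of all genes tested were, and 11 were highest in HCT116, where 4.88% of all genes tested were. The median difference was 0.46, above RKO (0.40), but with the probe set of largest SD or with each array's median over genes subtracted HCT116 was second to RKO. With the latter scaling 4 of the 29 members, not 11, were highest in HCT116. POLR3G, a subunit of RNA polymerase III, was 9.79 against a median of 7.79 and RKO at 9.40. BOP1 (9.39, next 9.20), PES1 (8.79, next 8.53) and BYSL (8.92, next 8.71), which build ribosomal subunits, and NME1 (12.73, next 12.45), a nucleoside diphosphate kinase, were also highest in HCT116. MYC itself was 11.85 against a median of 11.58, rank 4 of 18. No member passed the test.

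The promoters of 3 of these genes are shown because MYC binds the E-box CACGTG, here in capitals. They were read in the same window from RefSeq on GRCh38.p14, with WDR43 at chr2:28894417-28894716 on the plus strand, PES1 at chr22:30591861-30592160 on the minus strand and BYSL at chr6:41921249-41921548 on the plus strand.
WDR43: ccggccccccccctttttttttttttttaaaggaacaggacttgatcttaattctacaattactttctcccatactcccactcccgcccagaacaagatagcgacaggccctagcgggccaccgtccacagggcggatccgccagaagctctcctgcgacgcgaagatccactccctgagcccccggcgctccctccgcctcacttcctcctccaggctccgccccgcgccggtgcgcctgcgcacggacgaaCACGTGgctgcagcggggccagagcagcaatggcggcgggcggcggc
PES1: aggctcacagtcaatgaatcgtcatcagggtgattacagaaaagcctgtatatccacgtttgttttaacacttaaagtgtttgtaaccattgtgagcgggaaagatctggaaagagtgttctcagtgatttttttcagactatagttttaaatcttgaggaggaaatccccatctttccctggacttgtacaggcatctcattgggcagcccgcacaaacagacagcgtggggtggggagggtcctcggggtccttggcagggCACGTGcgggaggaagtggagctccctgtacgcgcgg
BYSL: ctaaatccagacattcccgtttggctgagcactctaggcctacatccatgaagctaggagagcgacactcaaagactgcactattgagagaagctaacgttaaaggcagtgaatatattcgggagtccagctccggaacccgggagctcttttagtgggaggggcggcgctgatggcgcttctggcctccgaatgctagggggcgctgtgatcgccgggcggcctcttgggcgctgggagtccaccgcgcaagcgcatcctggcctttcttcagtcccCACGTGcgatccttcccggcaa
The letters CACGTG, which read the same on both strands, were in 8 of the 21 windows found for the MYC list (38.1%) and in 1367 of 15399 windows of measured genes (8.88%). The list was drawn up as MYC targets, so its share describes the list and not HCT116. WDR43, a nucleolar protein of ribosome assembly, was 9.36 in HCT116 and second to RKO (9.44).

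Of 34 genes of DNA replication and mitosis, 28 were above the median of the other lines and 6 were highest in HCT116, with a median difference of 0.46 above SW48 (0.42). That rank of 1 fell to 6 when each array's median over genes was subtracted, and 2 members were then highest in HCT116; with the probe set of largest SD 3 were. MCM5, part of the helicase that opens replication origins, was 9.84 in HCT116 against a median of 8.67 and a next level of 9.48 (OUMS23). CDC20, an activator of the anaphase-promoting complex, was 11.51 against 10.39 and 11.06 (HUTU80), and its difference of 1.03 ± 0.33 did not pass the test (adjusted p = 0.808). CCNE1 (cyclin E) was 7.99 against a median of 6.04 (rank 4 of 18). MKI67, a marker of cycling cells, was 9.99 (rank 5). TOP2A (10.46, median 11.19) and KIF11 (8.69, median 8.92) lay under the medians.

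Gene position was read next. Measured genes were taken in chromosome order in 510 blocks of 25 neighbours, and HCT116 was the highest line in 28 blocks, within the range of the other lines (9 in LS180 to 46 in NCIH716), and the lowest in 1. Of the 28 blocks, 6 were among the 51 of chromosome 1, 5 among the 20 of chromosome 10, 5 among the 31 of chromosome 17, 4 among the 22 of chromosome 16 and 3 among the 33 of chromosome 19. By the median over all genes HCT116 was the highest line on chromosome 10 (0.21) and chromosome 17 (0.19), where 12.7% and 11% of genes were highest in HCT116 against 4.88% of all genes. On chromosome 10 the 125 genes from HPS1 to PLEKHA1 had a median difference of 0.66, while the other lines lay between −0.37 and 0.21, and 105 of the 125 were above the median. HCT116 was highest at 42 of them (33.6%), or at 27 (21.6%) with each array's median over genes subtracted, and 5 successive blocks had HCT116 first. The stretch was chosen after its values were seen and gets no test, and it ranked first in HCT116 under each scaling, probe set choice and left-out line.

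The named genes of the chromosome 10 stretch act in different processes. CUTC, a copper-binding protein, was 9.43 in HCT116 and at most 8.63 elsewhere. NPM3, a histone chaperone, was 9.71 against at most 9.55, SEC23IP, a factor of export from the endoplasmic reticulum, 9.37 against at most 8.80, and MCMBP, which binds the MCM helicase, 10.72 against at most 10.17. RRP12 and TWNK of the MYC list lie on chromosome 10 as well. The MYC and replication lists were also read without members on chromosomes 8, 10 and 17. Members on chromosome 16 were kept, and the other lines were not read this way, so these values give no rank. The MYC list kept a median difference of 0.39 over 21 members, all 21 above the median, and 6 in place of 11 were highest in HCT116. The replication list had 0.55 over 26 members.

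On chromosome 17 the 292 genes from PRAC2 to METRNL had a median difference of 0.37 (others −0.17 to 0.19), with 59 highest in HCT116 (20.2%). RAD51C, a recombination protein, was 9.57 against at most 9.19, RPS6KB1, the ribosomal protein S6 kinase, 10.02 against at most 9.42, TRIM37, a ubiquitin ligase of the centrosome, 10.08 against at most 9.69, and FASN, the fatty acid synthase, 8.33 against at most 8.05. On chromosome 16 the 73 genes from WWOX to DRC4 had a median difference of 0.46 with 17 highest in HCT116. Both stretches ranked first of 18 lines, and second to COLO320HSR when each array's median over genes was subtracted. HCT116 was then highest at 33 genes of the chromosome 17 stretch (11.3%) and at 7 of the chromosome 16 stretch (9.72%). On chromosome 8 the 217 genes from CA13 to C8orf33 had a median difference of 0.31, which 3 other lines exceeded. Copy number was not measured, and its part in these values was not tested.

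**Figure D4:**
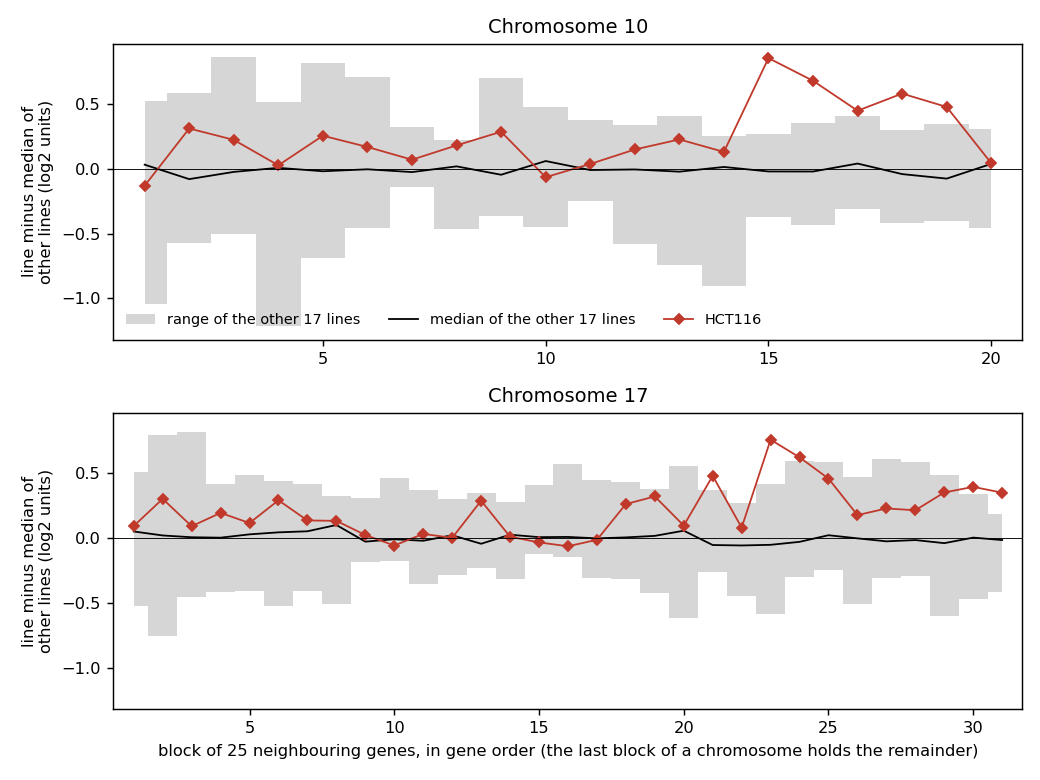
The median difference from the other lines in log2 units (vertical axis) is plotted for blocks of 25 neighbouring genes in order along chromosomes 10 and 17 (horizontal axis). Red diamonds are HCT116, the black line is the median and the grey area the range of the other 17 lines; HCT116 leaves the grey area in 5 successive blocks of chromosome 10, where the first reaches 0.86.

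In a short stretch of chromosome 11, 4 of 13 measured genes were above background in HCT116, where 9707 of all 19774 genes were. HBE1, the embryonic beta-like globin gene normally active in yolk sac erythroid cells, was 10.57 in HCT116, 9.09 in MDST8 and at a median of 3.91, and its difference did not pass the test (6.15 ± 1.45, adjusted p = 0.149). Olfactory receptor genes lie next to the beta-globin genes, and 3 of them were above background. OR51B4 was 7.47 in HCT116 and 5.48 in MDST8 (adjusted p = 0.00152). OR51I1 was 6.01 against at most 3.75 and OR51B5 was 5.62 against at most 4.19, both above background in HCT116 alone. For each of these receptors MDST8, also grown in RPMI-1640, was the next line, and against the RPMI-1640 lines alone the call of OR51B4 was lost. Of the 13 genes, from HBB to OR51I2, HCT116 was highest at 5, of which OR51B2 was under background. The other 4 were highest and above background, as were 4.88% of all genes tested. The adult globin genes HBB (4.24) and HBD (3.25) were under background, as was OR51B2 (4.56). The stretch was chosen after its values were seen.

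**Figure D5:**
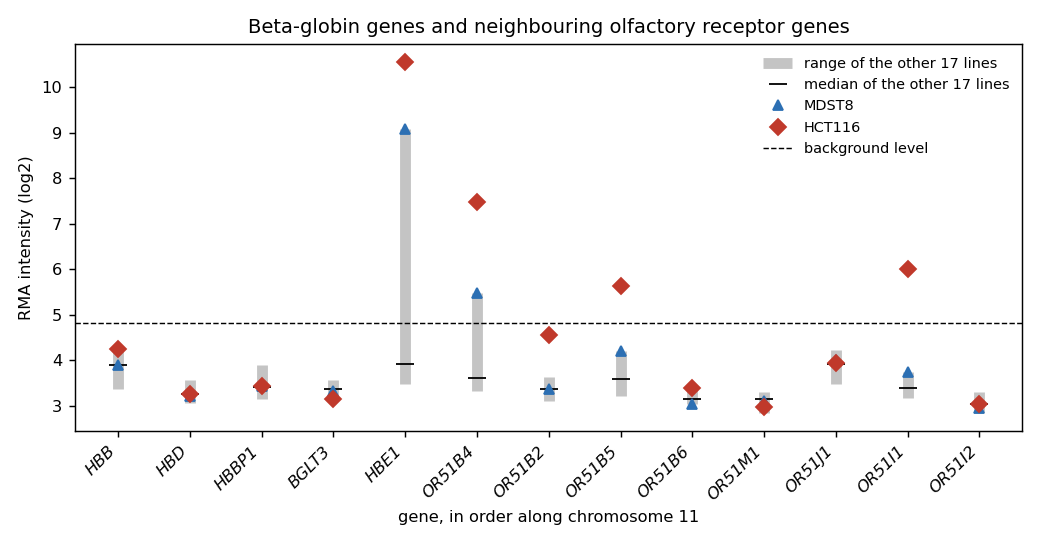
Log2 intensities (vertical axis) of 13 genes are plotted in order along chromosome 11 from HBB to OR51I2. Red diamonds are HCT116, blue triangles MDST8, grey bars the range and black dashes the median of the other 17 lines; HCT116 exceeds the dashed background level at HBE1, OR51B4, OR51B5 and OR51I1, and MDST8 at HBE1 and OR51B4.

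The measured mismatch repair genes were expressed. Of 7 members measured, all 7 were above background in HCT116. EXO1, the exonuclease of the pathway, was 8.45 against a median of 7.51. PMS1 was highest in HCT116 (9.30, KM12 at 9.10), and PMS2 was 7.68 against 7.18. MSH3, which recognises short loops, was 7.51 and ranked 16th, with a range of 7.35 (RKO) to 8.50 (LS513), MSH6 was 9.51 against a median of 9.66, and MLH3 was 5.79 against 6.40. EPM2AIP1, which encodes a partner of laforin, was 8.15, near the median of 8.36 and far above RKO (2.76). No member passed the test.

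Antigen presentation was lower at some steps. The 16 MHC class I presentation genes had a median difference of −0.54, rank 15 of 18. At least 1 unit under the median were 4 members (6.41% of all genes tested were), and none was at least 1 unit above it (8.75%). PSMB8, an immunoproteasome subunit, was 2.81 in HCT116, where 14 other lines expressed it and the median was 8.62. ERAP1, an aminopeptidase that trims peptides for loading, was the lowest of the panel (5.52 against at least 6.53, adjusted p = 0.808). ERAP2, its relative, was under background (3.28, median 6.08), as it was in HUTU80 (3.32). HLA-B (10.27) and HLA-C (10.94) were near the medians (9.81 and 10.77), and B2M was 12.06 against 12.79.

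Stress and metabolic genes showed single strong members more than common shifts. Of 27 genes of NRF2 and xenobiotic metabolism, 12 were above background. At least 1 unit under the median were 10 of them (6.41% of all genes tested were), and 3 were at least 1 unit above it (8.75%). ALDH1A1 (3.05, median 9.52), a retinaldehyde dehydrogenase, and AKR1C3 (3.85, median 10.04), an aldo-keto reductase, were at background, while ALDH1A3 (10.11, median 4.27) ranked 3 of 18 and the transporter ABCC2 the highest of the panel (7.19, HT55 at 6.51). BNIP3, a hypoxia-induced mitophagy receptor, was 9.94 against a median of 3.25, with 5 other lines above background. CCND2 (cyclin D2) was under background in HCT116 (3.42, median 8.55), while 13 other lines expressed it, and CCND1 (cyclin D1) ranked 3 of 18 (10.20). No member of these lists passed the test.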

How the data were processed

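The authors deposited log2 intensities. Per the submitters' processing notes these come from RMA and affy, with no version given in the sources used here. No further normalization was applied. Of 54613 probe sets, 40914 matched 1 gene in the platform annotation and were used, and 40858 of these were found in RefSeq of assembly GRCh38.p14, which gave names, gene order and promoters (122 of 164 named genes had one). Where a gene had several probe sets, the one with the highest mean stood for it. As background level, 4.82 was taken, the 95th percentile over 80 probe sets that read 50 genes restricted to other tissues. HCT116 was compared with the 17 other lines in limma 3.58.1 (R 4.3.3, trend, tested on simulated data), with Benjamini-Hochberg adjusted p under 0.05 called. A list's position is the median difference of its members from the median of the other lines. Likeness used genes with a range of at least 3 log2 units.

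Genes were named by rule: MAGEB2, GTSF1 and EREG, the 15 highest and 10 lowest by gap, the 5 largest called differences each way, 5 members per list by difference, all mismatch repair genes, CDH1, and 6 genes each way within the CDH1-positive set. Y-linked genes and XIST were left out. Other genes, and the chromosome stretches, were chosen after their values were seen. The members and gene lists were chosen with earlier results of these data known. Alternatives were other probe set choices, scalings, filters, gaps, references, culture medium, line subsets, and leaving out each line. The number of arrays limits the precision.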

Additional observations from a re-analysis of the deposited data

How the results depend on the processing

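No paired analysis was possible because each line was measured once and the labels carry no replicate numbers that match between groups. The fit against CDH1-positive lines alone tested 12327 genes, and how many of its calls entered only through HCT116 was not counted. The count called higher in HCT116 was 26, 49 without the filter on dim genes, 68 against CDH1-positive lines alone, and 23 to 33 with 1 other line left out. The count called lower was 4, 2 with the mean of all probe sets, 12 against CDH1-positive lines, and 2 to 7 with 1 line left out (7 without RKO, 2 without RCM1, SW948, SW1463 or NCIH716). Genes above every other line numbered 42 at a gap of 1, 20 at 2, 10 at 3 and 159 over RPMI-1640 lines alone. Genes below every other line numbered 15, 3, 2 and 66, and 6 with the mean of all probe sets. The 67% limit gave 11 lines with CDH1 and few enterocyte genes. The correlation with SW48 was 0.83 over genes with a range of 2. The chromosome 17 stretch was 0.51 over genes above background in all lines. List positions moved by less than 1 SD of the other lines' positions in 616 of 623 combinations of 27 lists and settings. The exceptions were germline (−0.15 against means, −0.16 with gene medians subtracted), mismatch repair (0.53) and NRF2 (−0.83) against means, CDK inhibitors over RPMI-1640 lines (−0.16), and endothelial (−0.028 with the mean of all probe sets, −0.18 with gene medians subtracted). Of 19 named genes called, 12 were called in every setting and 7 were lost in at least 1. PVT1 turned to −0.59 with the probe set of largest SD. The causes were not tested. Scaling by gene medians, the reading without chromosomes 8, 10 and 17, and the settings of the chromosome stretches were chosen after seeing the data. Scaling by gene medians moved HCT116 by 0.08. Genes near 4.82 have no reliable order.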

Other observations

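Several genes outside the lists were high in HCT116 in groups that share a chromosome, and they were chosen after their values were seen. On chromosome 5, AP3S1, an adaptor subunit of vesicle traffic, was 12.24 in HCT116 and at most 11.13 elsewhere. ATG12, an autophagy conjugation factor encoded beside it, was 10.73 against at most 9.73, with all 3 probe sets highest in HCT116. The kinase gene FER was 7.85 against at most 6.88. SNUC1 was the lowest line for each of these genes, at 3.29 to 3.74, and none passed the test (adjusted p = 1.00 in limma). On chromosome 1, PRKACB, a catalytic subunit of protein kinase A, was 10.40 against at most 9.05 and its neighbours SAMD13 (7.71, next 7.65) and TTLL7 (6.18, next 5.53) were highest too. For TTLL7 only 1 of the 2 probe sets above background placed HCT116 highest. On chromosome 19, the muscle troponin genes TNNI3 (6.86, next 5.24) and TNNT1 (10.59, next 10.36) and the adjacent DNAAF3 (8.32, next 7.37), a dynein assembly factor, were all highest in HCT116. TNNI3 also served in the list that set the background level, of whose 50 measured genes 3 exceeded that level in HCT116.

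Secreted factors of nerve and gut were among the high genes. BDNF, a neurotrophin, was 9.76 in HCT116 and 9.29 in CAR1, with a median of 3.17 (adjusted p = 0.648 in limma). FGF19, an ileal hormone that restrains bile acid synthesis, was 7.17 against at most 5.75 (adjusted p = 0.159). The neuropeptide gene GAL was highest in HCT116 (10.62, RKO at 10.26), and SCG2 (8.07, median 3.66), a granin of secretory vesicles, and CPE (8.19, median 3.59), a prohormone-processing enzyme, ranked 2 and 3 of 18. The defining neuroendocrine markers CHGA (3.07), SYP (3.64) and INSM1 (3.19) were under background in HCT116. At the low end, CBR1, a carbonyl reductase, was 2.97 in HCT116 and 3.30 in KM12, while the other 16 lines expressed it (median 9.68). SCCPDH, a putative dehydrogenase, was 2.95 in HCT116 and 2.89 in OUMS23 against a median of 9.06.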
